A study of Mus musculus with 4 samples.

Results

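Molecular chaperones are the proteins that fold, refold and unfold other proteins, and their genes are described here in mouse hematopoietic stem cells with and without Dis3, a catalytic subunit of the RNA-degrading exosome. Members were all genes whose symbol begins with Hsp90a, Hspa, Hspb, Hspd, Hspe or Hsph (followed by a digit or an a), with Dnaj, with Cct and a digit from 2 to 8, or with Pfdn and a digit, together with Tcp1 and without the histone chaperone gene Dnajc9. This gave 86 of the 24411 genes in the files. By the place where their proteins are known to work, 60 were cytosolic or nuclear, 14 belonged to the endoplasmic reticulum (ER), 9 to mitochondria, and 3 were left unplaced (Dnajc4, the ciliary transport gene Hspb11, and Hspbap1, which encodes a partner of a small heat shock protein). The letters of the rule miss Hsp90b1, the ER member of the HSP90 family, which is given below with the cofactors.

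The series holds 2 Dis3-/- and 2 wild-type (WT) RNA-seq libraries from C57BL/6 marrow. Dis3-/- cells came from Dis3fl/fl;Mx-Cre donors and WT cells from Dis3fl/fl donors without Cre. Both groups were chimeras: CD45.1 hosts were lethally irradiated, received donor marrow, and 4 weeks later were given pIpC, an RNA mimic of viral infection that turns on the interferon-responsive Mx promoter, at 300 µg a dose (days 0 and 2). Lineage-negative cells carrying EPCR and CD150 but not CD48 were sorted at day 4, 100 cells to a library, and total RNA was converted by RamDA-seq, a full-length random-primed method. The protocol text is the same for both genotypes, so pIpC is taken to have been given to WT chimeras too. Mx-driven Cre is not confined to stem cells, and the host tissue around the graft carries no Cre. The design text speaks of 2 mice, but the labels number the replicates without tying a library to a mouse, so that p-values measure the spread between these libraries only.

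Library totals were 6085367 and 6442740 expected counts in the Dis3-/- libraries and 6818535 and 6251761 in the WT libraries. Dis3 itself stood at 14.1 and 18.5 TPM (a transcript level scaled by gene length and by library total) in Dis3-/- libraries, against 36.9 and 34.6 TPM in WT libraries, with a log2 fold change of -1.02 ± 0.14 (SE; edgeR adjusted p = 0.000258). The labels do not give the floxed exons, and what the gene count still includes was not separated. All 10 stem cell markers were detected, and 4 were lower and 1 higher in Dis3-/- cells. Of the markers of other blood and stromal cells, Hbb-bs, Ctsg, Ebf1, Cd3e and Cd3g were at 0 in all 4 libraries. Others were detected: monocyte and macrophage markers summed to 405 to 422 TPM in Dis3-/- libraries and 474 to 502 TPM in WT libraries. Nkg7, the only detected gene of the T and NK cell list, stood at 211 to 260 TPM in Dis3-/- libraries and 212 to 293 TPM in WT libraries. Granulocyte markers summed to 69.6 to 76.2 TPM in Dis3-/- libraries and 91.7 to 102 TPM in WT libraries, megakaryocyte markers to 59.8 to 106 TPM in Dis3-/- libraries and 103 to 107 TPM in WT libraries, and Cd48 stood at 29.5 to 31.3 TPM in Dis3-/- libraries and 41.4 to 56.0 TPM in WT libraries. Erythroid, granulocyte, and endothelial and stromal markers had 1 gene each called lower in Dis3-/- cells, and the part of these cells in the chaperone results was not tested. All 10 genes of a cell division list were higher in Dis3-/- cells, with a median log2 fold change of 1.579, and the part of cell division in the chaperone results was not tested. In bulk libraries fewer cells of a type and less RNA per cell cannot be told apart.

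HSP70 proteins bind exposed stretches of unfolded chains and release them in a cycle driven by ATP. J proteins, encoded by Dnaj genes, bring clients to HSP70 and start its ATP hydrolysis. HSP90 acts later on nearly folded clients such as kinases and steroid receptors, while actin and tubulin pass from prefoldin to TRiC, a closed double-ring chamber of related subunits. Mitochondria have an HSP70 and a chamber of HSP60 and HSP10 of their own, and the ER has the HSP70 known as BiP. Heat shock factor 1 drives many of the cytosolic genes in stress, and the unfolded protein response drives those of the ER.

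Of the chaperone genes that passed the test, nearly all were higher in Dis3-/- stem cells, and most of these belonged to TRiC, HSP90, HSP70 and the mitochondrial chaperones. The test was edgeR's quasi-likelihood test on counts, adjusted over 12244 genes, with a threshold of 0.05. Of 86 members 72 had enough counts to be tested. Of these 20 rose, 1 fell and 51 did not pass, and the median log2 fold change was 0.134. Over all genes tested 12.7% rose and 10.2% fell (23.0% in all), and the median was -0.0027. On log2(TPM + 1) values 15 members rose and 3 fell. On the CPM scale (counts scaled to a common library total) the ranges of the 2 groups did not overlap for 47 of the 72 members, close to the 62.4% over all genes tested, so that this count shows nothing particular to chaperones. Statements on overlap for single genes below are on the TPM scale, on which some members, such as Cct5, overlap that do not in CPM.

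By compartment, mitochondrial chaperones had the highest count of calls for their number. Of 9 mitochondrial members, all of them tested, 5 rose and 0 fell, with a median log2 fold change of 0.446. Of 47 tested cytosolic members 14 rose and 0 fell, with a median of 0.22. Of 13 tested ER members 1 rose and 1 fell, with a median of 0.016. Of these 13, 11 were Dnaj genes (median -0.052), so that the ER median is mostly that of J proteins. Among 20 ER folding factors that the rule leaves out, given below, 10 rose and 0 fell, with a median of 0.336. Over all genes tested 12.7% rose and 10.2% fell. At an unadjusted p under 0.05 edgeR put 4 cytosolic and 0 mitochondrial members lower, and DESeq2 called 0 lower in either compartment. After subtraction of the median of genes of like transcript length the medians were 0.443 for mitochondria, 0.095 for the cytosol and 0.017 for the ER. Tested cytosolic and mitochondrial members had shorter transcripts than the genes tested (median length 0.839 and 0.817 of theirs) and ER members longer ones (1.407). No test between compartments was run.

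**Figure D1:**
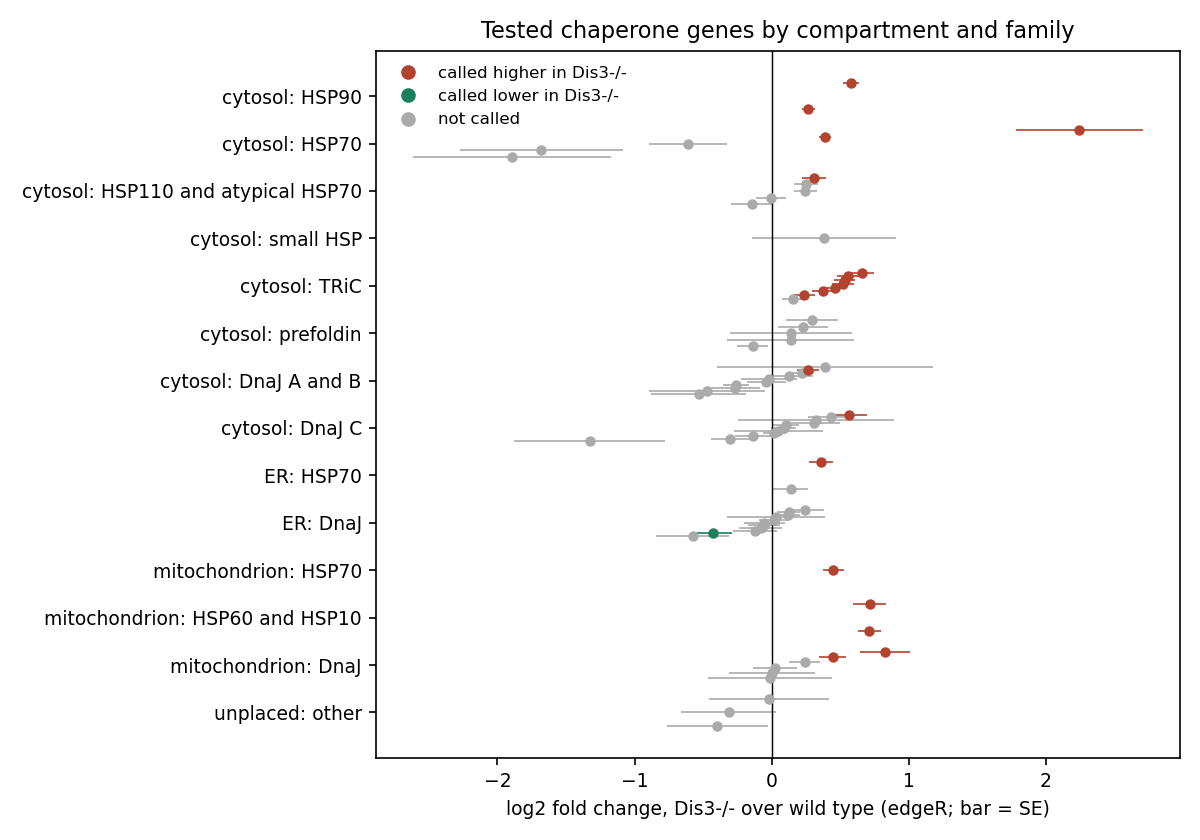
Log2 fold change of each tested chaperone gene (horizontal axis, Dis3-/- over wild type, bars are SE) in rows by compartment and protein family. The 20 genes called higher lie mostly in the HSP90, TRiC and mitochondrial rows, while the DnaJ rows of the cytosol and ER spread around 0, with the 1 gene called lower in the ER DnaJ row.

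The summed level of the members showed the same order of compartments on the TPM scale. All 86 members together held 1.42% and 1.47% of all TPM in Dis3-/- libraries, against 1.25% and 1.23% in WT libraries. Mitochondrial members summed to 1090.0 and 1093 TPM in Dis3-/- libraries, against 791 and 799.6 TPM in WT libraries. Cytosolic members summed to 12216 and 12496 TPM in Dis3-/- libraries, against 10790.3 and 10554 TPM in WT libraries. Both groups of sums were apart without overlap. ER members summed to 891 and 1037 TPM in Dis3-/- libraries, against 901 and 914 TPM in WT libraries, and there the groups overlapped. Hsp90b1, which the rule leaves out, is not in the ER sum. It stood at 253 and 277 TPM in Dis3-/- libraries, against 208 and 178 TPM in WT libraries. With it added the groups of ER sums would be apart, so that the overlap holds only for the members of the rule. As a share of all chaperone TPM, mitochondrial members held 7.65% and 7.46% in Dis3-/- libraries and 6.31% and 6.49% in WT libraries.

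Few J protein genes were among the members that rose. Of 39 tested Dnaj genes 4 rose (10.3%), near the 12.7% over all genes tested, and their median was 0.021. By edgeR 1 of them fell (2.56%), against 10.2% over all genes tested. That count varied with threshold and tool. At an unadjusted p under 0.05 edgeR put 4 Dnaj genes lower. DESeq2 called 0 of them lower, and limma on log2(TPM + 1) values called 3. Of 33 tested members of the other families 16 rose (48.5%) and 0 fell, with a median of 0.268. At an unadjusted p under 0.05 edgeR put 2 of these lower and DESeq2 called 0 lower. The other families were also measured more precisely, with a median level of 113 CPM and a median SE of 0.09, against 35.2 CPM and 0.158 for Dnaj genes. Among members with a mean of at least 50 CPM, a limit chosen after the values were seen, 2 of 15 Dnaj genes (13.3%) and 15 of 20 other members (75%) rose, while 18.0% of the 4522 genes at that level rose and 15.5% fell. The levels of all Dnaj genes summed to 1653 and 1744 TPM in Dis3-/- libraries and 1693 and 1695 TPM in WT libraries.

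In the cytosol the constitutive HSP70 and HSP90 genes made up almost as much of the chaperone RNA as all other members together. Hspa8 (chromosome 9, 40801276 to 40805202, mm10), which encodes the constitutive HSP70, and Hsp90ab1 (chromosome 17, 45567778 to 45573261), the constitutive HSP90, together held 46.7% and 47.6% of member TPM in Dis3-/- libraries and 47.0% and 47.3% in WT libraries. Hspa8 stood at 3459.7 and 3603 TPM in Dis3-/- libraries, against 2979 and 2849.9 TPM in WT libraries, a log2 fold change of 0.39 ± 0.04 (edgeR adjusted p = 5.94e-05). Hsp90ab1 stood at 3192 and 3375 TPM in Dis3-/- libraries, against 2907 and 2978 TPM in WT libraries (0.27 ± 0.04, edgeR adjusted p = 0.000841). Both were higher in each Dis3-/- library than in either WT library, though Hsp90ab1 did not pass on log2(TPM + 1) values (0.158, limma adjusted p = 0.098).

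Hsp90aa1 (chromosome 12, 110691036 to 110696395), the stress-inducible HSP90 of the cytosol, rose as well. It stood at 875 and 860.1 TPM in Dis3-/- libraries, against 636 and 618 TPM in WT libraries, with a log2 fold change of 0.58 ± 0.06 (edgeR adjusted p = 2.3e-05). Its share of the TPM of both genes was 21.5% and 20.3% in Dis3-/- libraries and 18.0% and 17.2% in WT libraries, a difference that was not tested.

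The heat-inducible HSP70 genes did not rise with it. Hspa1a (chromosome 17, 34969359 to 34972156) had 16.0 and 25.6 counts in Dis3-/- libraries, against 23.0 and 118 counts in WT libraries. Hspa1b (chromosome 17, 34956429 to 34959238) had 30.0 and 96.8 counts in Dis3-/- libraries, against 40.9 and 447 counts in WT libraries. WT replicate 2 alone was high for both genes, and the groups overlapped. The log2 fold changes of -1.68 ± 0.60 for Hspa1a and -1.89 ± 0.72 for Hspa1b did not pass (edgeR adjusted p = 0.057 and 0.0746), and without WT replicate 2 they were 0.03 and 0.78 (edgeR adjusted p = 0.982 and 0.253). Both did pass downward in other fits: without WT replicate 1 (-2.46 and -2.79, edgeR adjusted p = 3.46e-05 and 6.46e-08), without Dis3-/- replicate 1 (-1.42 and -1.32, edgeR adjusted p = 0.0174 and 0.00131) and without the filter on counts (-1.68 and -1.90, edgeR adjusted p = 1.11e-05 and 1.31e-20). Hspa1b also passed without Dis3-/- replicate 2 (-2.91, edgeR adjusted p = 0.0234). Each of these fits holds WT replicate 2, so that the direction for this pair rests on 1 library. The proteins of this pair are near-identical in mouse, so the division of reads between the genes is an estimate, and their sum was at 46.0 and 122 counts in Dis3-/- libraries, against 63.9 and 565 counts in WT libraries.

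Immediate early genes, which respond within minutes to handling, were at their highest in Dis3-/- replicate 2 for 8 of 12 genes and in WT replicate 2 for 4. Their part in the HSP70 values was not tested. Fos stood at 693 and 1899 TPM in Dis3-/- libraries, against 758 and 948 TPM in WT libraries, so that Dis3-/- replicate 2 was highest there (log2 fold change 0.70 ± 0.28, edgeR adjusted p = 0.0868). Dnajb1 (chromosome 8, 83608175 to 83612653), the J protein that works with HSP70 in the heat shock response, stood at 76.1 and 120 TPM in Dis3-/- libraries, against 101 and 113 TPM in WT libraries, and its groups overlapped as well (-0.04 ± 0.14, edgeR adjusted p = 0.872). Without Dis3-/- replicate 2 its value was -0.36 (edgeR adjusted p = 0.0363), and without Dis3-/- replicate 1 it was 0.22 (0.141). Of 12 immediate early genes only Ier3 was called, and it was lower (-0.53 ± 0.10, edgeR adjusted p = 0.00263), while 0 were called higher by edgeR or DESeq2 and 3 lay higher at an unadjusted p under 0.05.

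Hspa1l (chromosome 17, 34972703 to 34979228), best known from testis, had the largest log2 fold change of the members that rose. It had 34.0 and 46.6 counts in Dis3-/- libraries, against 7.12 and 11.4 counts in WT libraries, with a log2 fold change of 2.25 ± 0.47 (edgeR adjusted p = 0.00352). The groups were apart, but at 5.38 and 7.05 TPM in Dis3-/- libraries, against 1.07 and 1.85 TPM in WT libraries, the gene stayed at a low level. In GENCODE M21 its start lies 547 bases from that of Hspa1a on the other strand, and the library kit does not mark strand, so that reads of its own and those of neighbouring transcripts cannot be told apart. Hspa2, another HSP70 gene known from testis, stood at 5.44 and 5.81 TPM in Dis3-/- libraries, against 8.84 and 9.58 TPM in WT libraries, and did not pass (-0.61 ± 0.28, edgeR adjusted p = 0.141).

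**Figure D2:**
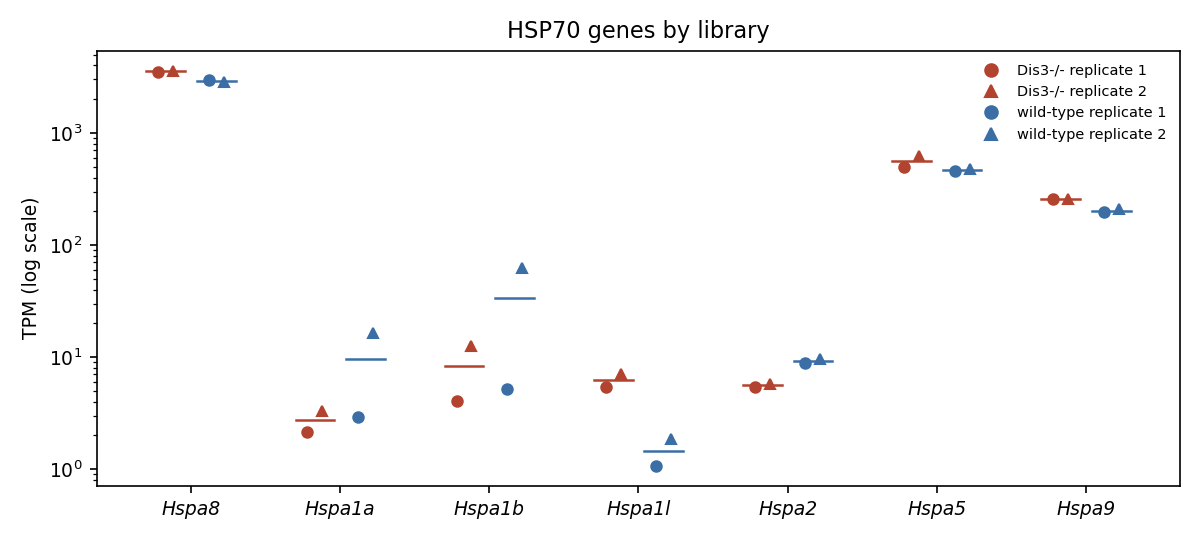
Level of 7 HSP70 genes in each library in TPM on a log axis, with Dis3-/- libraries left of wild-type libraries for each gene and horizontal lines at the group means. Hspa8 is higher in both Dis3-/- libraries, Hspa1a and Hspa1b are highest in wild-type replicate 2 alone (16.4 and 61.7 TPM), and Hspa1l is higher in both Dis3-/- libraries.

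The promoter of Hspa1b is shown because WT replicate 2 was set apart by this gene. It was read from RefSeq (GRCm38.p6), 250 bases before to 50 after the start, at chr17:34959189-34959488 on the minus strand, and capitals mark a match to a pair of inverted heat shock units, GAANNTTC or TTCNNGAA searched on both strands.
Hspa1b: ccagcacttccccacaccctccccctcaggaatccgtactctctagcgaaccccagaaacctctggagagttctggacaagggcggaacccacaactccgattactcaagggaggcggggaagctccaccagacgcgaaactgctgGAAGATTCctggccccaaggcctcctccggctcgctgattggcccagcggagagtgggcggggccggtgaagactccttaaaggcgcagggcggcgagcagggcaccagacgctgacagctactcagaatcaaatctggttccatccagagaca
Such a pair occurred in 15.1% of 32851 promoter windows, and in those of 20 of the 70 members found in the table (28.6%), against 17% of all its 27025 genes. The letters are a description of the window only.

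HSP110 proteins exchange the nucleotide of HSP70 and so let go of its clients. Neither Hspa4 (122 and 109 TPM in Dis3-/- libraries, against 105 and 106 TPM in WT libraries; 0.25 ± 0.09, edgeR adjusted p = 0.053) nor Hsph1 (98.0 and 108 TPM in Dis3-/- libraries, against 99.9 and 86.7 TPM in WT libraries; 0.25 ± 0.09, edgeR adjusted p = 0.0595) passed. Both lay just above the threshold and passed with robust empirical Bayes (0.0341 and 0.0435) and without the filter on counts (0.025 and 0.0372). Hspa4 also passed without Dis3-/- replicate 2 (0.35, edgeR adjusted p = 0.0132), and Hsph1 without Dis3-/- replicate 1 (0.30, 0.0332) or WT replicate 1 (0.35, 0.0437). Hspa4l stood at 34.9 and 35.8 TPM in Dis3-/- libraries and 38.6 and 38.0 TPM in WT libraries and did not pass (0.00 ± 0.11).

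Hspa14 (chromosome 2, 3488854 to 3512814) encodes an atypical HSP70 that, with the J protein of Dnajc2, forms the ribosome-associated pair that meets chains as they leave the ribosome. Hspa14 stood at 119 and 113 TPM in Dis3-/- libraries, against 104 and 95.1 TPM in WT libraries, and rose (0.31 ± 0.09, edgeR adjusted p = 0.02), though not without WT replicate 2 (0.26, edgeR adjusted p = 0.129), with DESeq2 (0.0831) or on log2(TPM + 1) values (0.102). Dnajc2 stood at 61.7 and 43.9 TPM in Dis3-/- libraries, against 43.1 and 41.4 TPM in WT libraries. Dis3-/- replicate 1 was the high library of Dnajc2, and its difference of 0.43 ± 0.16 did not pass (edgeR adjusted p = 0.0724), though it did without Dis3-/- replicate 2 (0.68, 0.00511) or without the filter on counts (0.0191). Hspa12b, an endothelial relative of HSP70, stood at 27.3 and 22.6 TPM in Dis3-/- libraries, against 28.9 and 30.7 TPM in WT libraries, and did not pass either (-0.15 ± 0.15, edgeR adjusted p = 0.522).

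TRiC, the folding chamber for actin and tubulin, had calls in most of its subunits. Of its 8 tested subunits 7 rose (87.5%), with a median log2 fold change of 0.491 over the 8. The share that rose was 12.7% over all genes tested and 18.0% over those at 50 CPM or more. Cct8 (chromosome 16, 87483325 to 87495869) changed most. It stood at 311 and 279 TPM in Dis3-/- libraries, against 210.0 and 193 TPM in WT libraries (0.66 ± 0.09, edgeR adjusted p = 0.000133). Cct6a (0.56 ± 0.08), Cct3 (0.53 ± 0.08), Tcp1 (0.52 ± 0.08), Cct4 (0.46 ± 0.07) and Cct7 (0.37 ± 0.08) followed, with edgeR adjusted p from 0.000332 to 0.00314 and no overlap between groups. Cct2 had the smallest called value (0.24 ± 0.08, edgeR adjusted p = 0.0486), and its call ended without Dis3-/- replicate 1 (0.16, edgeR adjusted p = 0.274), WT replicate 1 (0.27, 0.0906) or WT replicate 2 (0.20, 0.195). Cct2 was called in 3 of 13 alternatives, and not with DESeq2 (0.0892), DESeq2 size factors in edgeR (0.0512), upper-quartile scaling (0.0654) or on log2(TPM + 1) values (0.13, limma adjusted p = 0.234). DESeq2 and limma on TPM values each called 6 TRiC subunits higher.

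Cct5 (chromosome 15, 31590800 to 31601846) was the subunit that did not pass. It stood at 515 and 496 TPM in Dis3-/- libraries, against 515 and 467 TPM in WT libraries, and the groups overlapped (0.15 ± 0.08, edgeR adjusted p = 0.166). The subunits share 1 complex in equal numbers, and on the TPM scale their levels were closer together in Dis3-/- cells. The highest subunit exceeded the lowest 2.22-fold and 2.26-fold in Dis3-/- libraries, against 3.03-fold and 2.86-fold in WT libraries. Cct5 held on average 17.4% of TRiC TPM in Dis3-/- libraries and 20.8% in WT libraries, while Cct8 held 10.1% in Dis3-/- libraries and 8.53% in WT libraries. These shares were not tested. The testis subunit gene Cct6b had 1 and 1 counts in Dis3-/- libraries and 5 and 2 in WT libraries, and was not tested. Cct8 overlaps Usp16, Tcp1 overlaps Acat3 and Mrpl18, Cct6a overlaps Psph and Cct7 overlaps Pradc1 on the other strand, so that reads of these pairs can be shared.

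**Figure D3:**
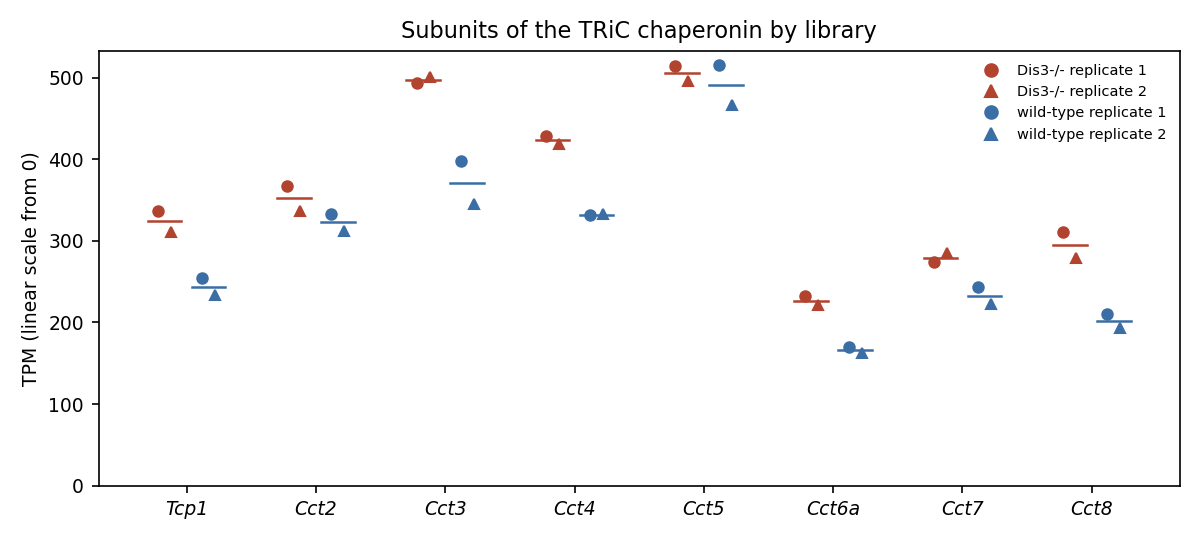
Level of the 8 TRiC subunit genes in each library in TPM on a linear axis from 0, with Dis3-/- libraries left of wild-type libraries and lines at the group means. Both Dis3-/- libraries lie above both wild-type libraries for 7 subunits, while for Cct5 the groups overlap between 467 and 515 TPM.

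Prefoldin, which hands actin and tubulin chains to TRiC, did not pass the test at any subunit. By edgeR 0 of the 5 tested genes within the rule were called, 0 of them at an unadjusted p under 0.05, and DESeq2 called 0 as well. Vbp1, a subunit gene whose symbol the rule misses, did not pass either (-0.03 ± 0.14, edgeR adjusted p = 0.904). Pfdn5, the most abundant, stood at 204 and 223 TPM in Dis3-/- libraries, against 259 and 245 TPM in WT libraries (-0.14 ± 0.11, edgeR adjusted p = 0.421). Pfdn1 (0.30 ± 0.19) and Pfdn6 (0.23 ± 0.18) lay on the other side of 0, and Pfdn2 and Pfdn4, at 9.67 to 14.4 TPM in all libraries, had SEs of 0.46 and 0.45, close to the size of the TRiC median, so that such a change was not detectable there. Of 12 other genes listed with TRiC and prefoldin, among them Vbp1 and the tubulin folding cofactors, 0 rose by edgeR or DESeq2 (2 at an unadjusted p under 0.05 by edgeR) and 1 fell by edgeR. This was Tbce, at 42.1 and 34.9 TPM in Dis3-/- libraries, against 65.4 and 52.4 TPM in WT libraries (-0.50 ± 0.16, edgeR adjusted p = 0.0313), which was not called without Dis3-/- replicate 2 (-0.35, 0.196) or WT replicate 1 (-0.35, 0.218), or with DESeq2 (0.106).

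Small heat shock proteins hold unfolded chains without ATP. Their genes had low counts in these cells: of 7 genes only Hspb6 passed the count filter, at 3.35 and 7.85 TPM in Dis3-/- libraries and 4.59 and 4.67 TPM in WT libraries (0.38 ± 0.52, edgeR adjusted p = 0.646). Hspb1 had 2 and 1 counts in Dis3-/- libraries and 2 and 7 in WT libraries. In all, 14 members were not tested. No library held more than 11 counts of any of them, and Hspb3, Dnajc5b, Dnajc5g and Dnajc22 had 0 counts in all 4 libraries.

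Among cytosolic J proteins 2 genes rose, 1 of 10 tested Dnaja and Dnajb genes and 1 of 11 tested Dnajc genes. These shares (10% and 9.09%) lay near and below the 12.7% of all genes tested that rose. Dnaja1 (chromosome 4, 40722468 to 40734965), a major partner of HSP70, stood at 77.2 and 84.4 TPM in Dis3-/- libraries, against 70.9 and 74.5 TPM in WT libraries (0.27 ± 0.08, edgeR adjusted p = 0.032). It was not called without Dis3-/- replicate 2 (0.22, 0.143) or WT replicate 1 (0.22, 0.198), with DESeq2 (0.0823) or upper-quartile scaling (0.053), or on log2(TPM + 1) values (0.15, limma adjusted p = 0.271). Dnajc8 (chromosome 4, 132535559 to 132553742), whose human protein is found with splicing factors, stood at 87.0 and 79.5 TPM in Dis3-/- libraries, against 59.8 and 61.6 TPM in WT libraries (0.56 ± 0.13, edgeR adjusted p = 0.00747). Each Dis3-/- library was above each WT library for both genes.

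Other cytosolic J proteins lay below 0 without passing the edgeR test. Dnajb6, which keeps aggregation-prone chains soluble, stood at 124 and 114 TPM in Dis3-/- libraries, against 163 and 151 TPM in WT libraries, with the groups apart (-0.26 ± 0.09, edgeR adjusted p = 0.0586), and it did pass on log2(TPM + 1) values (-0.40, limma adjusted p = 0.0139), and by edgeR without the filter on counts (0.0497), with upper-quartile scaling (0.0392) or without Dis3-/- replicate 1 (-0.32, 0.0493). Dnajc6, the auxilin that uncoats clathrin vesicles, stood at 21.2 and 22.1 TPM in Dis3-/- libraries, against 24.5 and 33.3 TPM in WT libraries (-0.30 ± 0.14, edgeR adjusted p = 0.152), and it passed without WT replicate 1 (-0.52, 0.0133). Dnajc12, a partner of the aromatic amino acid hydroxylases, had 5 and 12 counts in Dis3-/- libraries, against 26 and 20 counts in WT libraries (-1.33 ± 0.55, edgeR adjusted p = 0.0998). Dnajc12 passed on log2(TPM + 1) values (-1.17, limma adjusted p = 0.0349), and with a library left out it lay between -2.01 (without Dis3-/- replicate 2) and -0.88 (without Dis3-/- replicate 1) without passing. Dnaja2 (0.22 ± 0.09, edgeR adjusted p = 0.0901) lay above 0 and Dnajb5 (-0.53 ± 0.35, edgeR adjusted p = 0.296) below it.

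Cochaperones of HSP90 and HSP70 outside the member families were also among the genes that rose. All 24 genes were tested: 9 rose, 1 fell, and the median was 0.25 on the log2 scale. For comparison, 12.7% of all genes tested were called higher and 10.2% lower. Among those at 50 CPM or more the shares were 18.0% and 15.5%. Ahsa1, which speeds the ATPase of HSP90, stood at 167 and 163 TPM in Dis3-/- libraries, against 119 and 102 TPM in WT libraries (0.68 ± 0.11, edgeR adjusted p = 0.000606). Fkbp5, a cochaperone of steroid receptors (0.63 ± 0.10), and Stip1, which links HSP70 to HSP90 (0.58 ± 0.10), rose too. The gene that fell was Unc45a, which helps fold myosin, at 37.0 and 33.9 TPM in Dis3-/- libraries, against 52.1 and 48.2 TPM in WT libraries (-0.39 ± 0.11, edgeR adjusted p = 0.0252). It was not called without Dis3-/- replicate 2 (-0.30, 0.137) or WT replicate 1 (-0.34, 0.125), or with DESeq2 (0.099).

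The heat shock factors themselves did not pass. Hsf1, the main factor, stood at 61.4 and 51.5 TPM in Dis3-/- libraries, against 60.7 and 51.1 TPM in WT libraries (0.12 ± 0.14, edgeR adjusted p = 0.564). Hsf2 (0.13 ± 0.20) and Hsbp1, which encodes a protein that binds heat shock factor 1 (0.18 ± 0.10), did not pass either, with edgeR adjusted p of 0.681 and 0.208. Of these 3 genes 0 were called by edgeR or DESeq2, and 0 had an unadjusted p under 0.05.

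In mitochondria the folding chamber and the HSP70 of the matrix rose together. Hspd1 (chromosome 1, 55077833 to 55088243), the HSP60 gene, stood at 222 and 225 TPM in Dis3-/- libraries, against 140 and 155 TPM in WT libraries (0.71 ± 0.09, edgeR adjusted p = 7.23e-05). Hspe1 (chromosome 1, 55088148 to 55091317), which encodes the HSP10 lid of that chamber, stood at 304 and 269 TPM in Dis3-/- libraries, against 206 and 170 TPM in WT libraries (0.71 ± 0.12, edgeR adjusted p = 0.00102). The groups were apart for both, and Hspe1 held 57.8% and 54.5% of their summed TPM in Dis3-/- libraries and 59.5% and 52.3% in WT libraries. Hspa9, the mitochondrial HSP70 that also pulls imported proteins inward, stood at 255 and 258 TPM in Dis3-/- libraries, against 198 and 209 TPM in WT libraries (0.45 ± 0.08, edgeR adjusted p = 0.000863).

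Hspd1 and Hspe1 lie head to head, with starts 111 bases apart in GENCODE M21 and annotations that overlap, so that reads at their shared end can be divided between them. Their common promoter is shown because both genes rose. It was read from RefSeq (GRCm38.p6) in the direction of Hspe1, at chr1:55087898-55088197 on the plus strand. Capitals mark the run covered by 2 overlapping matches to a triplet of heat shock units, TTCNNGAANNTTC and GAANNTTCNNGAA, which begins 89 bases before the start of Hspe1.
Hspe1: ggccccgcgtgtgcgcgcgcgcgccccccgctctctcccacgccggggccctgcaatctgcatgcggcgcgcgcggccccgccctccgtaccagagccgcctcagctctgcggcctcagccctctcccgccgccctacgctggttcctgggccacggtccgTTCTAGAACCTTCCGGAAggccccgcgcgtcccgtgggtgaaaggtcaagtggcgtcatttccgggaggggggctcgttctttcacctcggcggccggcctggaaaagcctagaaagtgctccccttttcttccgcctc
The same triplet stands in the window of Hsph1 (chr5:149636287-149636586, minus strand), beginning 36 bases after the start, and Hsph1 is shown beside it because that gene did not pass the test.
Hsph1: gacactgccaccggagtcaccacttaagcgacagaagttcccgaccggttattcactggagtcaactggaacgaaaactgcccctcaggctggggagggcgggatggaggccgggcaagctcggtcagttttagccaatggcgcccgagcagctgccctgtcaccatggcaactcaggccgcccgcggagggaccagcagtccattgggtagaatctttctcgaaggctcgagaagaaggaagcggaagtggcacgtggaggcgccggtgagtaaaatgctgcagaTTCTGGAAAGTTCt
Triplets were found, on either strand, in 0.603% of the 32851 promoter windows. Counted by gene, 4 of the 70 members with a window had one (5.71%), against 0.662% of all 27025 genes. The 4 were Hsph1, Dnajb6, Hspd1 and Hspe1. Of these 4 genes 2 rose and 2 did not pass.

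Of 6 mitochondrial J protein genes 2 rose (33.3%), against 12.7% over all genes tested, and so few genes are not set apart from that share. Dnajc15 (chromosome 14, 77826217 to 77874917), whose mouse protein sits in the inner membrane and restrains the respiratory chain, stood at 104 and 127 TPM in Dis3-/- libraries, against 65.5 and 74.0 TPM in WT libraries. Its log2 fold change of 0.83 ± 0.18 (edgeR adjusted p = 0.00522) was the largest of the mitochondrial members. Dnaja3 (chromosome 16, 4684070 to 4707695), the matrix partner of Hspa9, stood at 75.8 and 79.1 TPM in Dis3-/- libraries, against 60.7 and 61.6 TPM in WT libraries (0.45 ± 0.10, edgeR adjusted p = 0.00557). Dnajc19, a part of the import motor, stood at 66.6 and 72.3 TPM in Dis3-/- libraries, against 62.1 and 71.2 TPM in WT libraries, and its groups overlapped (0.02 ± 0.16, edgeR adjusted p = 0.94). Dnajc11, a protein of the contact sites of the inner membrane, did not pass (0.24 ± 0.11, edgeR adjusted p = 0.146), nor did Dnajc28 and Dnajc30 (-0.01 ± 0.45 and 0.00 ± 0.31, Dnajc30 being below 0 on TPM values).

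**Figure D4:**
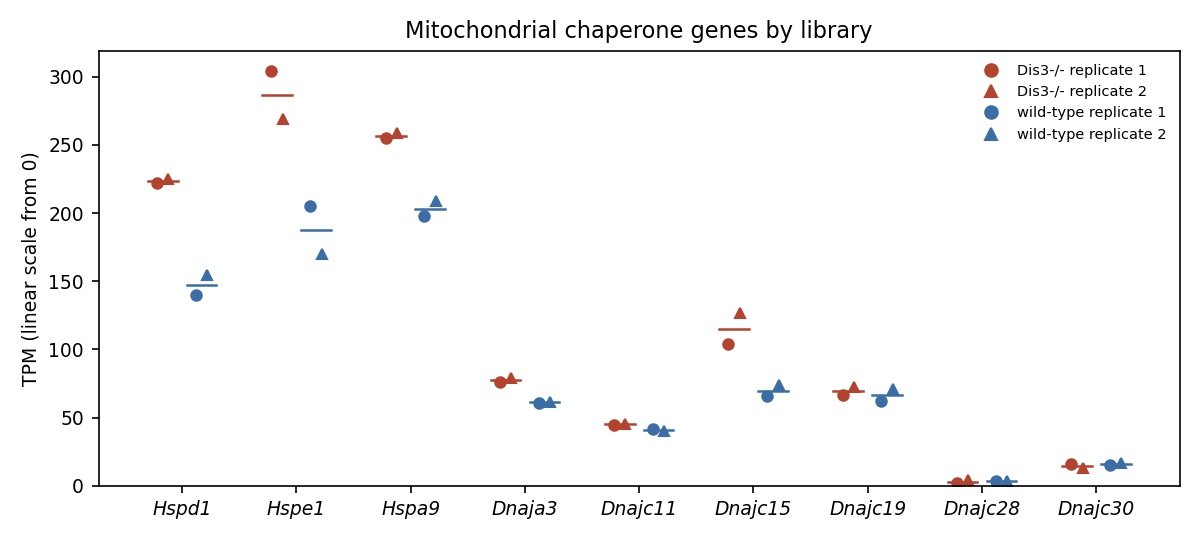
Level of the 9 mitochondrial chaperone genes in each library in TPM on a linear axis from 0, with Dis3-/- libraries left of wild-type libraries and lines at the group means. Hspd1, Hspe1, Hspa9, Dnaja3 and Dnajc15 are higher in both Dis3-/- libraries. So is Dnajc11 (44.8 and 45.0 TPM, against 41.9 and 40.3 TPM in wild-type libraries), which was not called. Dnajc19, Dnajc28 and Dnajc30 overlap between the groups.

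Of 14 other genes of mitochondrial folding and quality control 3 rose and 1 fell by edgeR, with a median log2 fold change of 0.175. For comparison, 12.7% of all genes tested rose and 10.2% fell, and 18.0% and 15.5% of those at 50 CPM or more. So small a list is not set apart from these shares. DESeq2 called 1 higher and 0 lower, and limma on log2(TPM + 1) values 0 higher and 1 lower. Trap1, the mitochondrial HSP90, stood at 198 and 195 TPM in Dis3-/- libraries, against 169 and 178 TPM in WT libraries (0.29 ± 0.08, edgeR adjusted p = 0.02). The protease subunit gene Clpp (0.54 ± 0.18, edgeR adjusted p = 0.0466) and the import motor gene Timm44 (0.36 ± 0.12, edgeR adjusted p = 0.0482) were the others that rose. Hscb, a J protein of iron-sulfur cluster assembly, fell, at 68.5 and 80.2 TPM in Dis3-/- libraries, against 111 and 110.0 TPM in WT libraries (-0.46 ± 0.16, edgeR adjusted p = 0.045). Hscb was called with none of the 4 libraries left out (adjusted p from 0.0638 to 0.204). Clpp was called only without Dis3-/- replicate 2 (0.77, edgeR adjusted p = 0.0101) and stood at 0.29 without Dis3-/- replicate 1. Trap1 was not called without Dis3-/- replicate 1 (0.27, 0.056) or WT replicate 1 (0.25, 0.144). Timm44 was not called without Dis3-/- replicate 2 (0.30, 0.201), WT replicate 1 (0.43, 0.0724) or WT replicate 2 (0.30, 0.21).

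In the ER, BiP rose and most of its J partners did not pass. Hspa5 (chromosome 2, 34772090 to 34776529), the BiP gene, stood at 493 and 619 TPM in Dis3-/- libraries, against 459 and 474 TPM in WT libraries (0.36 ± 0.09, edgeR adjusted p = 0.00869). The groups were apart, but Dis3-/- replicate 2 was the high library, and without it the value was 0.21 (edgeR adjusted p = 0.0698). Hspa5 was not called on log2(TPM + 1) values either (0.24, limma adjusted p = 0.125). Hspa13, the other HSP70 gene among the ER members of the rule, stood at 25.7 and 26.7 TPM in Dis3-/- libraries, against 24.3 and 27.3 TPM in WT libraries (0.14 ± 0.13, edgeR adjusted p = 0.472).

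Dnajb9 (chromosome 12, 44205897 to 44210068) was the only member that fell in the edgeR test. Its protein, ERdj4, brings BiP to the stress sensor Ire1 and is itself a known target of Xbp1. It stood at 37.8 and 47.5 TPM in Dis3-/- libraries, against 59.5 and 64.1 TPM in WT libraries, with the groups apart (-0.43 ± 0.14, edgeR adjusted p = 0.0426). The call ended without Dis3-/- replicate 1 (-0.29, edgeR adjusted p = 0.253), WT replicate 1 (-0.49, 0.0539) or WT replicate 2 (-0.36, 0.168), and with DESeq2 (0.157). Dnajb14, an ER membrane J protein, stood at 9.69 and 9.26 TPM in Dis3-/- libraries, against 17.1 and 13.4 TPM in WT libraries (-0.58 ± 0.27, edgeR adjusted p = 0.136). The luminal J proteins Dnajb11 (0.25 ± 0.13), Dnajc10 (0.12 ± 0.08) and Dnajc3 (0.12 ± 0.09) did not pass, with edgeR adjusted p of 0.211, 0.322 and 0.336.

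Hspa5 and Dnajc3 are shown side by side because these 2 members had a match to the ER stress element. The element is CCAAT and CCACG 9 bases apart on either strand, and 0.119% of the 32851 windows held it. Counted by gene, it was found for 2 of the 70 members with a window (2.86%), against 0.137% of all 27025 genes. The windows are chr2:34771840-34772139 and chr14:118937682-118937981, both on the plus strand of GRCm38.p6 from RefSeq, and capitals mark the element, which begins 65 bases before the start of Hspa5 and 105 before that of Dnajc3.
Hspa5: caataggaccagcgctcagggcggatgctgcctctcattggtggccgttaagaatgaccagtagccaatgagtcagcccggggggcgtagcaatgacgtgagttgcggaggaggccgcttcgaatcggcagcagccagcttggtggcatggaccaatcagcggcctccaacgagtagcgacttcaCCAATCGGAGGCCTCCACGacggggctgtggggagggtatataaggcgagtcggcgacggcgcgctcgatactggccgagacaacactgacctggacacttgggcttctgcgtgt
Dnajc3: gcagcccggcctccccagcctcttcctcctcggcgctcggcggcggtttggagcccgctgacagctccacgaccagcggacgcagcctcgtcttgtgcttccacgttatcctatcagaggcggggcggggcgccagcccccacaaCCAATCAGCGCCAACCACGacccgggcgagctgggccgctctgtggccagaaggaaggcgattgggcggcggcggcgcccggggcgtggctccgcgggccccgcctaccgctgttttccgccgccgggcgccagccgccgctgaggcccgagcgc
Dnajc3 stood at 48.6 and 48.9 TPM in Dis3-/- libraries and at 48.8 and 48.1 TPM in WT libraries.

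Among ER folding factors outside the member families, many rose. Of 20 genes 10 rose and 0 fell by edgeR (1 lower at an unadjusted p under 0.05, 0 lower by DESeq2), with a median log2 fold change of 0.336. Among all genes tested 12.7% rose and 10.2% fell. Hsp90b1 (chromosome 10, 86690841 to 86705444), the ER HSP90, stood at 253 and 277 TPM in Dis3-/- libraries, against 208 and 178 TPM in WT libraries (0.57 ± 0.08, edgeR adjusted p = 0.000386). The disulfide isomerase genes Pdia3 (0.61 ± 0.08, edgeR adjusted p = 0.00012) and P4hb (0.41 ± 0.08, edgeR adjusted p = 0.00174) rose as well. Among 9 regulators of the ER stress response 1 rose and 1 fell, near the shares over all genes tested. Ern1, which encodes the sensor Ire1, stood at 53.5 and 62.6 TPM in Dis3-/- libraries, against 91.0 and 89.0 TPM in WT libraries (-0.52 ± 0.09, edgeR adjusted p = 0.00116). Xbp1, whose RNA is spliced by Ire1, stood at 72.4 and 95.8 TPM in Dis3-/- libraries, against 65.7 and 70.9 TPM in WT libraries (0.41 ± 0.13, edgeR adjusted p = 0.0302), and was not called without Dis3-/- replicate 2 (0.22, 0.292) or WT replicate 1 (0.35, 0.12), with DESeq2 (0.0918) or on log2(TPM + 1) values (0.28, limma adjusted p = 0.167). Splicing of Xbp1 was not measured in these tables.

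**Figure D5:**
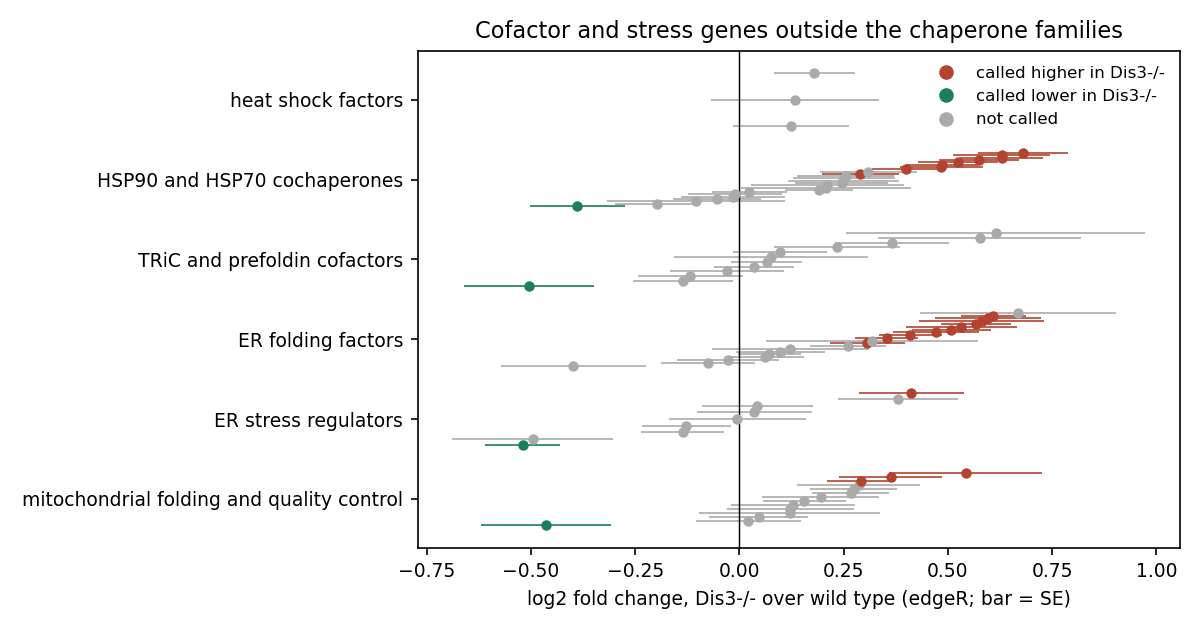
Log2 fold change of tested cofactor and stress genes (horizontal axis, Dis3-/- over wild type, bars are SE) in rows by list. Genes called higher gather in the rows of HSP90 and HSP70 cochaperones (9 of 24) and ER folding factors (10 of 20), and none is called among the 3 tested heat shock factor genes.

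The 3 unplaced members did not pass: Hspbap1 (-0.40 ± 0.37), Hspb11 (-0.31 ± 0.35) and Dnajc4 (-0.02 ± 0.44), with edgeR adjusted p from 0.48 to 0.98.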

How the data were processed

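RNA of 100 sorted cells per library was measured in 2 Dis3-/- and 2 WT libraries. Per the submitters' processing notes, Trim Galore 0.6.6, STAR 2.7.8a and RSEM 1.3.3 were used with build mm10. The role of each, the annotation and any strand option were not given in the sources used here. The authors deposited expected counts, which are estimates per gene before any scaling (92.3% to 92.6% were whole), and TPM, which the authors scaled by gene length. Estimation divides reads among near-identical genes. Replicates were not duplicates: a chi-square of their counts, per degree of freedom, came to 4.11 for Dis3-/- and 3.51 for WT.

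After rounding, expected counts were tested with edgeR 4.0.16 (R 4.3.3): filterByExpr with a minimum count of 10 and a total of 15, TMM scaling, glmQLFit and 2-sided glmQLFTest, Benjamini-Hochberg adjustment over 12244 genes, and a threshold of 0.05. Log2 fold changes are Dis3-/- over WT, and each SE was obtained from the F statistic. Levels and sums are TPM. Alternatives were DESeq2 1.42.0, limma 3.58.1 on log2(TPM + 1) and log2(TPM + 0.1), other scalings and filters, a replicate block, subtraction of the median of genes of like transcript length (10 classes), and each library left out, where a library alone in its group is assumed to vary like the others. The fitting code was tested on simulated data. The 50 CPM limit was chosen after the values were seen.

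Positions and promoters are from RefSeq GRCm38.p6, and gene overlaps and distances between starts from GENCODE M21. Promoter windows were found for 70 of 86 members. Genes were named by rule: Dis3, the TRiC subunits, up to 4 members with the smallest p in each family and compartment, members that fell, the most abundant member of each compartment, up to 3 cofactors per list, and members with too few counts. Dnajb1, Dnajc3, Hspa2, Timm44, Unc45a, Hspa4l, Dnajc28, Dnajc30 and Pfdn2 were added after their values were seen. Members and lists were chosen with earlier results of these data known.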

Additional observations from a re-analysis of the deposited data

How the results depend on the processing

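The calls of 9 of the 21 called members (Cct4, Cct6a, Cct8, Dnajc15, Dnajc8, Hsp90aa1, Hspa9, Hspd1 and Tcp1) held in all 13 alternatives. By DESeq2 1742 genes were called and 0 members fell. By limma on unfiltered log2(TPM + 1) values 950 genes were called, 9 members rose and 0 fell. The number of members that fell was 4 without a filter on counts, 2 with upper-quartile scaling and 3 on filtered TPM values with either pseudocount. With a library left out 2112 to 2352 genes were called, 18 to 21 members rose and 0 to 3 fell. The medians of cytosol, ER and mitochondria were 0.107, -0.108 and 0.335 on log2(TPM + 1) values. These cover the members that passed the filter, so that on this scale leaving it out could not change them. On log2(TPM + 0.1) values the medians were 0.107, -0.111 and 0.339. The median of all genes was then -0.107 and -0.112 on the filtered values, and relative to it the log2(TPM + 1) medians were 0.214, -0.001 and 0.442. In edgeR with a library left out, the medians themselves, not taken relative to all genes, ranged from 0.149 to 0.202 for the cytosol. Those of the ER ranged from -0.023 to 0.076, and those of mitochondria from 0.400 to 0.469. The length correction gave a cytosolic median of 0.095. The cause of these shifts was not tested.

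With the replicate number as a block 2614 genes were called, 19 members rose and 3 fell; Hspa1a and Hspa1b then passed downward (-1.467 and -1.659, edgeR adjusted p = 0.0319 and 0.00359), and Cct2, Hscb and Timm44 did not pass (0.0651, 0.0512 and 0.0687). Deviations of same-numbered libraries correlated at -0.0293 over genes, which cannot exclude a pairing that acts on some genes. The labels give the number no meaning, so whether same-numbered libraries are paired is not known.

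Some uncalled genes changed sign when a library was left out: Hsf1 (-0.025 to 0.267), Hsf2 (-0.092 to 0.329), Dnajb1 (-0.362 to 0.224), Hspa12b (-0.304 to 0.005), Hspb6 (-0.334 to 0.848), Dnajc19 (-0.103 to 0.141), Dnajc4 (-0.295 to 0.222), Dnajc28 (-0.884 to 0.523), Dnajc30 (-0.155 to 0.156), Fos (-0.167 to 1.248), Dusp1 (-0.002 to 1.178), Hspa1a (-2.456 to 0.031) and Hspa1b (-2.905 to 0.782). Dnajc30 was also below 0 with DESeq2 size factors and in DESeq2 (-0.002), with upper-quartile scaling (-0.020) and on TPM values (-0.103 and -0.109).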
